A study of Mus musculus with 2 samples.

Results

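The imprinted Dlk1-Dio3 cluster on mouse chromosome 12 was examined in cultured neural stem cells with and without knockdown of the histone variant H3.3. The 6 genes described, Dlk1, Meg3, Rtl1, Rian, Mirg and Dio3, were taken from the 18510 genes of the deposited count table by their symbols. They were picked with results of the same 2 libraries known, so their own difference between the libraries is given as a description and without a test. Imprinted genes are read mainly from the allele of one parent. In this cluster the protein-coding genes Dlk1, Rtl1 and Dio3 are known to be expressed from the paternal chromosome, and the noncoding transcripts Meg3, Rian and Mirg from the maternal one, under a control region between Dlk1 and Meg3 that is methylated on the paternal chromosome. The noncoding transcripts host many microRNAs and small nucleolar RNAs (snoRNAs), and the cluster is known for its activity in embryonic and placental tissue and in brain. The counts do not separate the parental alleles, so the parental classes below are background knowledge.

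Both libraries were made from neural stem cells taken from the brain of CD-1 embryos at E12 and kept for 5 days in proliferation medium. One culture received a lentivirus with a control plasmid and the other a lentivirus with an H3.3 knockdown plasmid, so both groups carry a viral infection. H3.3 is a form of histone H3 that can be placed into chromatin outside DNA replication. The sources used here state neither the knockdown sequence nor how many embryos were used. Each group held 1 library of polyadenylated RNA, with 9184779 control counts and 8702855 knockdown counts over genes. No difference below therefore has a replicate check. The H3.3 genes H3f3b and H3f3a had 0.544 (interval 0.523 to 0.566) and 0.646 (0.601 to 0.695) of their control levels, the direction of the label. Levels are given as CPM, a gene's counts per 1000000 counts of its column. Every interval is a 95% interval of the counts and covers counting error only, and PCR reads are not independent molecules. A gene is said to have risen or fallen when its mean was at least 1 CPM, its ratio at least 2-fold with 0.5 count added to each library, and its interval free of 1.

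The cells carried markers of neural stem cells, of neurons, of the oligodendrocyte lineage and of astrocytes. The 8 stem cell and radial glia markers, Nes, Sox2, Pax6, Fabp7, Slc1a3, Hes5, Vim and Sox9, summed to 4842 CPM without and 4993 CPM with the knockdown, and none rose or fell by the rule. Their single ratios ran from Pax6 at 0.54 (0.48 to 0.60) of control to Fabp7 at 1.33 (1.29 to 1.36). The log2 ratio was above 0 for 3 of the 8, with a median of -0.12. The 8 neuron markers summed to 5217 and 7067 CPM. Oligodendrocyte lineage markers summed to 2007 and 1970 CPM and astrocyte markers to 576 and 552 CPM, with their single changes given below. In such a bulk sample, more cells of a type and more RNA per cell cannot be told apart.

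The cluster spans 828 kb in the table's positions, from the start of Dlk1 to the end of Dio3. No source used here names the genome build. The positions of 5 of the 6 genes equal those of the GENCODE vM21 annotation of GRCm38, and the sixth, Rtl1, shares 1 end with it. Dlk1 (ENSMUSG00000040856, chr12:109452823-109463336, plus strand) comes first and is followed after 77.7 kb by Meg3 (ENSMUSG00000021268, chr12:109541001-109571726, plus strand). Rtl1 (ENSMUSG00000085925, chr12:109589194-109600330) is the only member on the minus strand and ends 3.61 kb before Rian (ENSMUSG00000097451, chr12:109603940-109661716, plus strand). Mirg (ENSMUSG00000097391, chr12:109729764-109749460, plus strand) lies 68.0 kb further on, and Dio3 (ENSMUSG00000075707, chr12:110279068-110281097, plus strand) another 530 kb beyond it.

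The small RNAs of the cluster show what the noncoding members carry. RefSeq places 58 microRNA hairpins between the outer ends of the cluster, 54 of them on the strand of Meg3, Rian and Mirg, and GENCODE 23 snoRNAs, all 23 on that strand. Rian holds 13 of the snoRNAs and 3 hairpins, Mirg holds 14 hairpins, and 24 hairpins with 10 snoRNAs lie between those genes. None of the 90 microRNA and snoRNA genes that GENCODE annotates there has a row in the table, so their levels are not described. Counts are given for the member transcripts only, and the small RNAs between Rian and Mirg lie in no member. The mature sequences below are from RefSeq (GRCm38.p6), 5′ to 3′, with the seed (bases 2 to 8) in capitals. The first 5 lie opposite Rtl1, the next 1 in Rian, 2 in Mirg, and the last 2 in the stretch between Rian and Mirg, where they share a seed.
mmu-miR-431-5p: uGUCUUGCaggccgucaugca
mmu-miR-433-3p: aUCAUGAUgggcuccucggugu
mmu-miR-127-3p: uCGGAUCCgucugagcuuggcu
mmu-miR-434-3p: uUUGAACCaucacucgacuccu
mmu-miR-136-5p: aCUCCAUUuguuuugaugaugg
mmu-miR-370-3p: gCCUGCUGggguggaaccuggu
mmu-miR-134-5p: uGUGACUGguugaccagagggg
mmu-miR-410-3p: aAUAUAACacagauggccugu
mmu-miR-379-3p: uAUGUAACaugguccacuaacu
mmu-miR-411-3p: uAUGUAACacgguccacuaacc
The 113 distinct mature names of the cluster have 104 distinct seeds, and 9 seeds are shared by a pair of them. All 11 mature microRNAs encoded opposite Rtl1 have their exact complement in the annotated Rtl1 transcript. That follows from their place on the other strand of its exons. No source used here says whether counting was by strand, so reads of Rtl1 and of an antisense transcript there cannot be told apart.

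Meg3 and Rian made up nearly all of the cluster's reads and both had higher counts in the knockdown library. The 6 genes together took 4631 control counts (0.0504% of the library) and 8859 knockdown counts (0.102%). Of these, Rian and Meg3 held 96.9% and 97.6%. Their sequenced depth is therefore far above that of the other members, and so is the precision of their ratios.

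Rian, a noncoding transcript that hosts C/D box snoRNAs, was the member that rose. Its control count of 2260 (246 CPM) compares with 5027 (578 CPM) after knockdown, a ratio of 2.35 (2.23 to 2.47). By counts it moved from rank 739 to rank 148 among the 18510 listed genes. Among 881 genes with a mean level within 2-fold of Rian's, itself included, 10 rose and 4 had a larger log2 ratio. It was also the only member that the authors' deposited table marks as significant, with a log2 fold change of 1.23, while that table marks 5.84% of all its genes. Both the ranking and the mark come from the 2 libraries known when the cluster was picked, so they are description only.

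Meg3, also called Gtl2, is a long noncoding RNA reported to bind Polycomb repressive complex 2 in mouse cells. Its control count of 2228 (243 CPM) compares with 3623 (416 CPM) after knockdown. Its ratio of 1.72 (1.63 to 1.81) was short of 2-fold, although the interval lay above 1. Mirg, the host of the microRNA group at the distal end of the noncoding stretch, had 23 and 27 counts, or 2.50 and 3.10 CPM. Its ratio of 1.24 came with an interval of 0.684 to 2.26, so a difference in either direction was not detectable at this depth. With 23 control counts, at least 38 knockdown counts would have been needed for an interval above 1. The short listed gene Gm26945 (ENSMUSG00000098061), which lies within the span of Rian on the same strand, had 6 and 5 counts and was under 1 CPM.

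**Figure D1:**
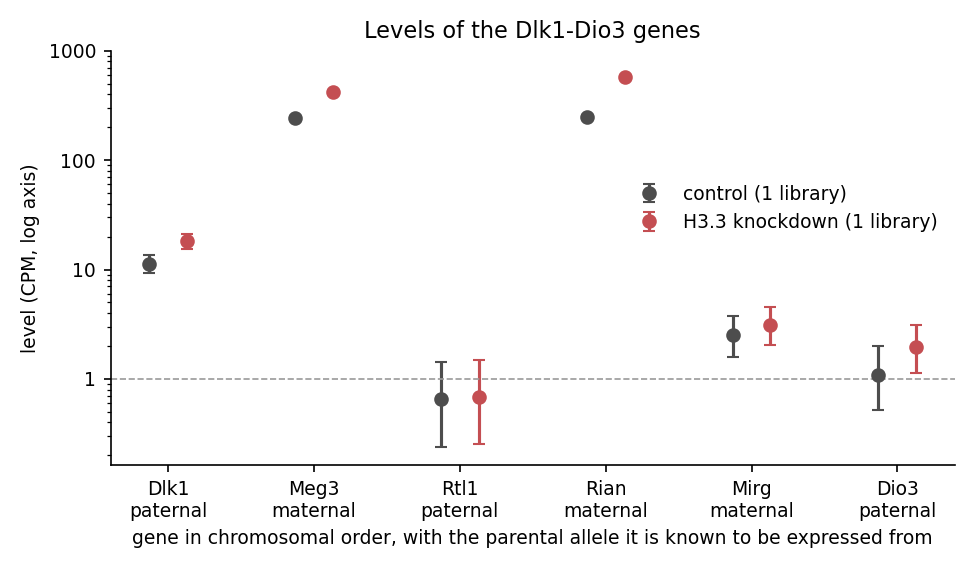
Level of each gene in CPM on a log axis, for the control library (grey) and the H3.3 knockdown library (red), with 95% counting intervals; the dashed line marks 1 CPM. Rian and Meg3 lie at 243 CPM or more in both libraries, Dlk1 at 11.3 and 18.3 CPM, and the other genes at 3.10 CPM or less.

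Among the paternally expressed genes, Dlk1 had the most counts. Dlk1 encodes a membrane protein with EGF-like repeats, related to the Notch ligands, that is expressed by progenitor cells and acts in adult neurogenesis in the mouse. Its control count of 104 (11.3 CPM) compares with 159 (18.3 CPM) after knockdown, a ratio of 1.61 (1.25 to 2.09). That difference exceeded counting error but was short of 2-fold, for which 198 knockdown counts would have been needed. Dio3 encodes the deiodinase that inactivates thyroid hormone, and its counts of 10 and 17 gave a ratio of 1.79 with an interval of 0.776 to 4.39. Rtl1, a gene derived from a retrotransposon and needed in the mouse placenta, had 6 counts in each library. Rtl1 stayed under the minimum of 1 CPM, and its interval of 0.282 to 3.95 leaves its difference undetermined. For Dio3 and Rtl1, at least 22 and 16 knockdown counts would have been needed for an interval above 1.

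Of the 6 members, 5 reached the minimum of 1 CPM, and of those 1 rose and none fell. The members were chosen by this contrast, so nothing is read from that count beside the 3.82% of 13989 genes that rose, the 2.54% that fell and the 6.36% that did either. All 5 had a ratio above 1, as did 47.1% of all genes tested. An interval above 1 without a size limit was met by Rian, Meg3 and Dlk1 and by 22.9% of all genes tested. With a size limit of 1.5-fold in place of 2-fold, the same 3 members passed, against 9.01% of all genes. The log2 ratios of the 5 members ran from 0.30 for Mirg to 1.23 for Rian with a median of 0.78, while the median over all genes tested was -0.03.

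**Figure D2:**
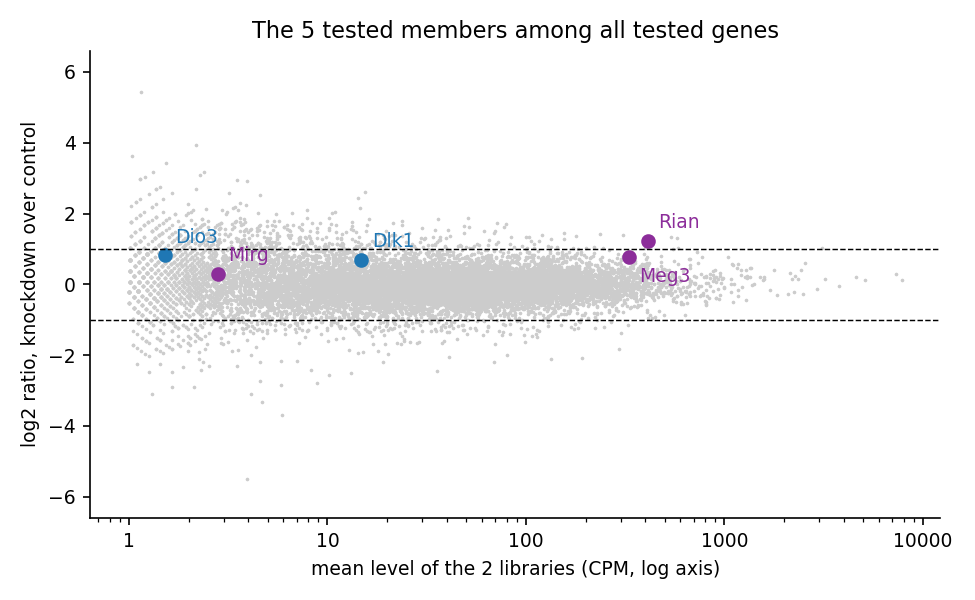
Log2 ratio of knockdown over control against the mean level of the 2 libraries in CPM on a log axis, for all genes at 1 CPM or more on average (grey) and the 5 members among them (purple, maternally expressed; blue, paternally expressed); dashed lines mark 2-fold. Rian and Meg3 lie at the upper edge of the genes at their level, whereas Dio3 and Mirg lie at levels where many genes scatter as widely.

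Levels can be set against each other only per length. As CPM per kb of annotated exon (RPKM), Meg3 and Rian were at nearly the same level in the control, 13.4 and 13.5 RPKM, over exons that total 18.1 and 18.2 kb. In the knockdown library Rian was at 31.7 RPKM and Meg3 at 23.0 RPKM. Dlk1 followed with 2.00 and 3.23 RPKM, then Dio3 with 0.536 and 0.962 RPKM, Mirg with 0.343 and 0.426 RPKM, and Rtl1 with 0.103 and 0.108 RPKM. The order of the genes was the same in the knockdown library apart from the gap that opened between Rian and Meg3. In the control, Rian and Meg3 lay within their counting intervals, at 236 to 256 and 233 to 253 CPM. The counting intervals of Dio3 and Mirg overlapped in CPM in each library, where Mirg had the higher value. Intervals per kb were not computed, so the order of these genes in RPKM was not checked against counting error. The exon lengths are unions over all annotated transcripts, 20 for Rian and 11 for Meg3, and a gene that uses few of its exons has its RPKM understated.

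Within a library, the counts of 2 genes can be compared with no scaling between libraries. Per Meg3 count, Rian had 1.01 counts in control cells and 1.39 after knockdown, a change of 1.37-fold (1.27 to 1.47). The difference between the neighbouring noncoding transcripts was therefore larger than counting error. Dlk1 relative to Meg3 stood at 0.940 of its control value (0.725 to 1.22) and Dio3 at 1.05 (0.451 to 2.56), so no difference between these genes and Meg3 was detectable at this depth. Mirg relative to Meg3 had 0.722 of its control value (0.398 to 1.32). Rian thus stood apart from Meg3, and also from Dlk1, with 1.46-fold (1.12 to 1.88), and from Mirg, with 1.90-fold (1.04 to 3.44). These comparisons were made after the values were known.

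**Figure D3:**
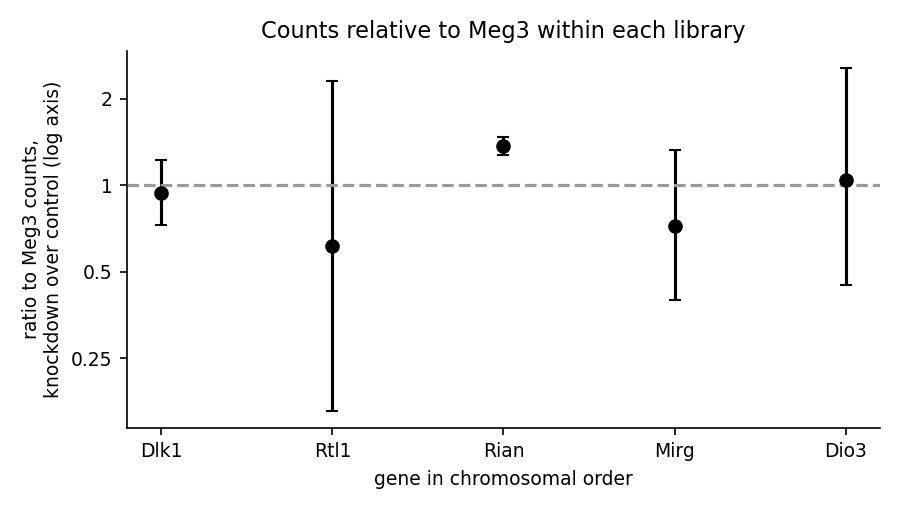
Counts of each gene relative to Meg3 counts in the same library, as the ratio of knockdown over control on a log axis, with exact 95% counting intervals; the dashed line marks no difference from Meg3. Rian lies at 1.37, and the intervals of the other 4 genes include 1.

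By parental class, the maternally expressed noncoding genes summed to 491 CPM in control cells and 997 CPM after knockdown, a ratio of 2.03 (1.96 to 2.10). The paternally expressed coding genes summed to 13.1 and 20.9 CPM, a ratio of 1.60 (1.26 to 2.03). Both intervals lay above 1. The ratio of the maternal to the paternal sum was 37.6 in control cells and 47.7 after knockdown, a change of 1.27-fold. Its interval of 0.996 to 1.61 included 1, so no difference between the classes was detectable beyond counting error. Without Rian the maternal ratio was 1.71 (1.62 to 1.80), and without Dlk1 the paternal ratio was 1.52 (0.767 to 3.07). The sums are each dominated by 1 or 2 genes.

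Windows around the annotated start are shown for the 3 members with over 100 counts in each library. Those are also the members with intervals above 1, and no shared control is read from that. The sequences are from RefSeq (GRCm38.p6), plus strand, 5′ to 3′, from 250 bases before the RefSeq start to 50 after it, with CpG dinucleotides in capitals. The windows are chr12:109452573-109452872 for Dlk1, chr12:109540746-109541045 for Meg3 and chr12:109603695-109603994 for Rian.
Dlk1: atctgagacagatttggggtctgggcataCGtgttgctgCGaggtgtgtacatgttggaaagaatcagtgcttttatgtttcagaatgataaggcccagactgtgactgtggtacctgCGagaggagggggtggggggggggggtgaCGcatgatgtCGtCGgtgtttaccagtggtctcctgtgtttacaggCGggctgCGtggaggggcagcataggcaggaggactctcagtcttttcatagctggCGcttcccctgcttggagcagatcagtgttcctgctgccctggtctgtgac
Meg3: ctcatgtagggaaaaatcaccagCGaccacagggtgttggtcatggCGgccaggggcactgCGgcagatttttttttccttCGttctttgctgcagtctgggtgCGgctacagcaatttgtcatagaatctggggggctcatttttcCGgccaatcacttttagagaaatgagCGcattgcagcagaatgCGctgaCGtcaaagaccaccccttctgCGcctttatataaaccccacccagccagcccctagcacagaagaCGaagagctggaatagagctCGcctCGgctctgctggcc
Rian: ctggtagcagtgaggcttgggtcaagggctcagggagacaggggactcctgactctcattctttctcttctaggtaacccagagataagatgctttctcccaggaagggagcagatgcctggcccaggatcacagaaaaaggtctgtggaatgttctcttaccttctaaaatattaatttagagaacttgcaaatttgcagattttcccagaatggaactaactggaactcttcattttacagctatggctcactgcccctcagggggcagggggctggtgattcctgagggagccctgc
The Meg3 window holds 13 CpG, the Dlk1 window 9 and the Rian window 0, against a median of 7 over 32851 promoter windows of the same length. The cAMP response element TGACGTCA, a palindrome, begins 57 bases before the Meg3 start and occurs in 1.79% of all windows. The hexamer TGCCGC, which the imprint factor ZFP57 is known to bind when methylated, matches on the other strand 190 bases before the Meg3 start and occurs in 11.6% of all windows on either strand. The TATA box TATAAA and its reverse complement overlap in the Meg3 window, 25 and 29 bases before the start, and 13.6% of all windows hold it. None of the 3 motifs was found in the Dlk1 or Rian window. A match describes the letters of a window and not binding. The windows follow annotated starts alone, and whether transcription begins there in these cells was not tested.

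Around the cluster, 1 gene passed the rule. Of 24 listed genes within 1 Mb of either end, 22 reached 1 CPM. Of these 1 rose and no gene fell, where 3.82% of all tested genes rose and 2.54% fell. A log2 ratio within 0.5 of 0 was seen for 17, and the median was 0.06. On the Dio3 side the nearest genes were Ppp2r5c, a phosphatase subunit, at 1.08 (1.00 to 1.15) of control, the dynein heavy chain Dync1h1 at 1.19 (1.16 to 1.22) and the chaperone Hsp90aa1 at 1.05 (1.01 to 1.10). On the Dlk1 side the nearest was Begain, which encodes a protein of the synapse, with 167 and 303 counts and a ratio of 1.91 (1.58 to 2.33). Begain lay above Dlk1 and Meg3 in ratio and short of 2-fold, 385 kb outside Dlk1. The next genes out, Wdr25 and the tryptophanyl-tRNA synthetase Wars, stood at 0.941 (0.665 to 1.33) and 0.951 (0.866 to 1.04). The flanking gene that rose was Amn, 990 kb beyond Dio3, with 6 and 21 counts and a ratio of 3.69 (1.44 to 11.2). Over all of chromosome 12 without the 6 members, these flanking genes included, 16 of 496 tested genes rose and 17 fell, with a median log2 ratio of 0.00.

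**Figure D4:**
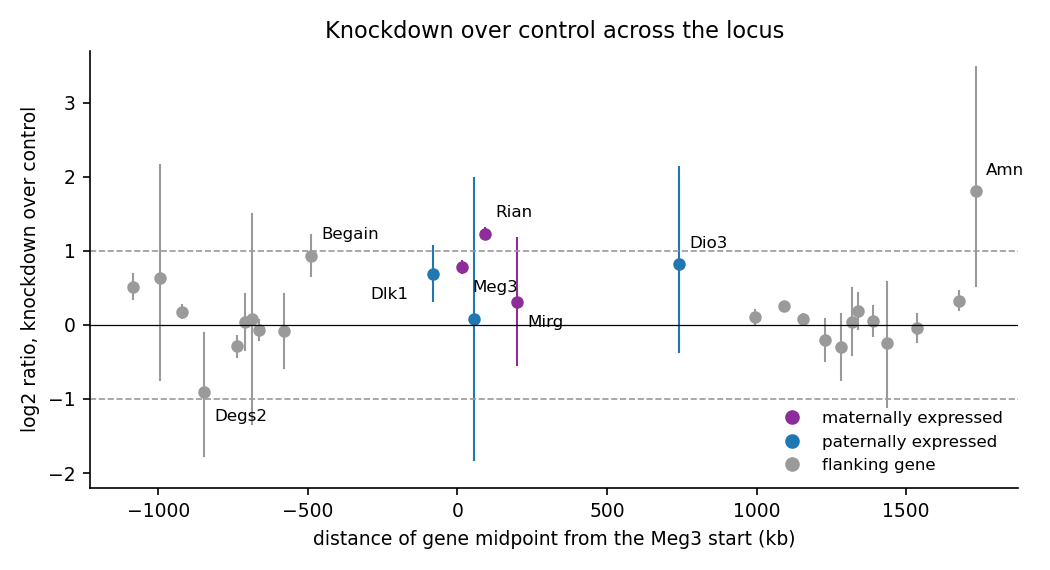
Log2 ratio of knockdown over control against the distance of each gene's midpoint from the Meg3 start in kb, for the 6 cluster genes (purple, maternally expressed; blue, paternally expressed) and the 22 flanking genes with at least 1 CPM (grey), with 95% counting intervals; dashed lines mark 2-fold. Rian lies at 1.23, and 17 of the 22 flanking genes lie within 0.5 of 0.

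Other long noncoding RNAs moved in both directions. Of 653 genes that GENCODE annotates as long noncoding, members left out, 45 rose (6.89%) and 26 fell (3.98%), with a median log2 ratio of 0.00. Among all tested genes 3.82% rose and 2.54% fell. Of 12 such genes that averaged 100 CPM or more, none rose or fell. The class follows the annotated gene type, processed transcripts included, and these 12 take in Cct6a, a chaperonin subunit gene. Peg13, an imprinted noncoding RNA on another chromosome, had the highest ratio of those 12, at 1.83 (1.71 to 1.95). Malat1 was at 1.06 (0.986 to 1.13) and Miat at 0.511 (0.476 to 0.549). Among 782 genes with an exonic length within 1.5-fold of Rian's, 32 rose (4.09%, near the share of all genes) and 4 fell (0.512%), with a median of 0.06.

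Among genes linked to imprint maintenance at this domain, a pair that copies DNA methylation fell. The list also held erasers of DNA methylation, those of the Tet family. It had 13 tested genes and a median log2 ratio of -0.16. The 2 past the rule both fell, where 2.54% of all tested genes fell. Those were Dnmt1, the maintenance DNA methyltransferase, at 0.428 (0.400 to 0.459) of control and its partner Uhrf1 at 0.369 (0.331 to 0.411). Zfp57, the zinc finger protein that protects methylated imprints, had 533 and 531 counts (1.05, 0.931 to 1.19), and its cofactor Trim28 was at 0.724 (0.690 to 0.759). Genes of DNA replication outside the list also fell, such as the helicase subunit Mcm2 at 0.374 (0.339 to 0.414) and the chromatin assembly subunit Chaf1a at 0.419 (0.350 to 0.499), and their part in the levels of Dnmt1 and Uhrf1 was not tested. Polycomb repressive complex 2 had no member of 11 past the rule and a median of -0.10. Its histone-binding subunits Rbbp4 and Rbbp7 were at 0.815 and 0.865 of control, and the methyltransferase Ezh2 at 0.595 (0.546 to 0.648). Of the 9 genes of microRNA processing none rose or fell (median -0.06), with Ago1 at 0.751 and Ago2 at 0.858 of control.

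The lists around the coding members held few genes past the rule, where 3.82% of all tested genes rose and 2.54% fell. Counts this small are not read as a result about the lists. In the thyroid hormone list, which surrounds Dio3, 1 of 15 tested genes rose and 1 fell, with a median of 0.41. That median was -0.047 with a minimum of 10 CPM. The carrier protein Ttr rose from 4 to 38 counts and the hormone-binding protein Crym fell from 80 to 31 counts. The activating deiodinase Dio2 was at 1.33 (1.06 to 1.67) of control. Of 7 tested thyroid hormone response genes, Reln rose (2.64, 2.49 to 2.80), Mbp fell (0.440, 0.374 to 0.517) and the median was 0.22. In the list of Notch receptors and ligands, the family to which Dlk1 is related, 1 of 11 fell, the ligand Dll4 (33 to 14 counts), and the median was -0.48. Dlk2, the closest relative of Dlk1, had 64 and 55 counts (0.907, 0.621 to 1.32). Among 9 tested relatives of Rtl1, 1 rose, Rtl10 with 20 and 44 counts, and the median was 0.21.

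**Figure D5:**
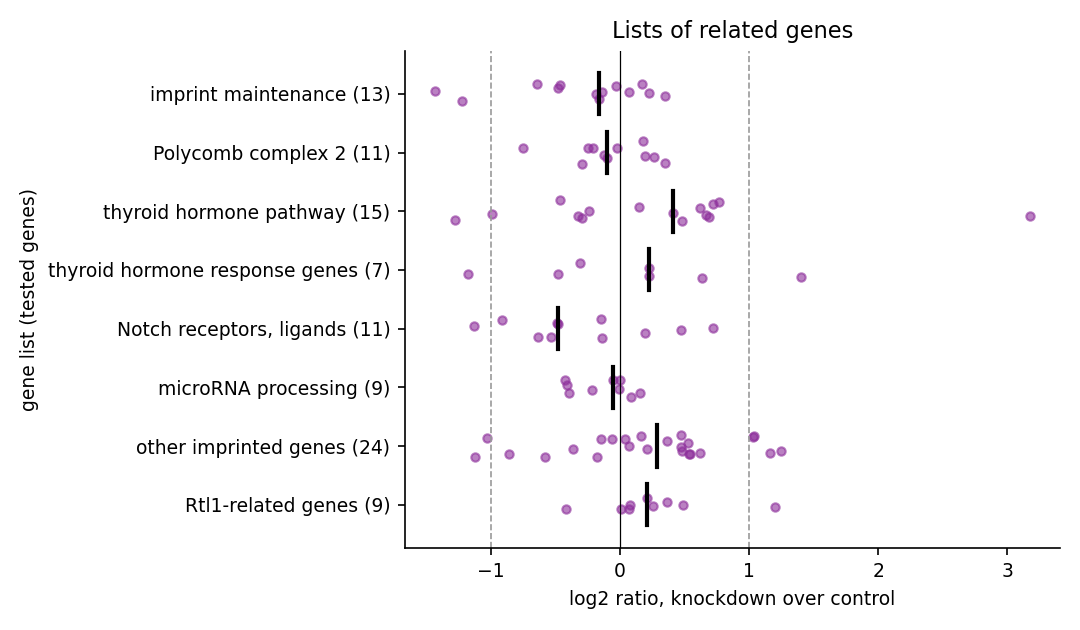
Log2 ratio of knockdown over control for every tested gene of 8 lists (points; the number tested is in brackets), with the median of each list as a black bar; dashed lines mark 2-fold. Medians run from -0.48 for the Notch receptors and ligands to 0.41 for the thyroid hormone pathway, where Ttr lies at 3.17.

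Imprinted genes elsewhere in the genome moved in both directions. Of 24 tested, 4 rose and 2 fell, beside 3.82% and 2.54% of all tested genes, with a median of 0.29. Those that rose were the zinc finger gene Zim1 at 2.37 (2.00 to 2.82), the membrane proteolipid gene Nnat at 2.04 (2.01 to 2.08), Magel2 at 2.06 (1.60 to 2.65) and the growth factor Igf2, with 12 and 26 counts. Igf2 no longer passed with 5 counts added or with a minimum of 10 CPM, which left 3 that rose. The noncoding RNA H19 fell to 0.456 (0.328 to 0.626) of control and the ankyrin repeat gene Asb4 to 0.488 (0.390 to 0.607).

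The 3 genes whose log2 ratio lay nearest to Rian's, among those with a mean within 2-fold of its own, included Gap43 at 1.30 and Reln at 1.40. Over 2 libraries this likeness is that of a single ratio. Markers of other cells also differed between the libraries. Beside the counts that follow, 3.82% of all tested genes rose and 2.54% fell. Of the 8 neuron markers, Gap43 and Snap25 rose and none fell, Stmn2 was at 1.88 (1.81 to 1.95), Tubb3 at 0.956 (0.928 to 0.985) and Syt1 at 0.588 (0.545 to 0.635) of control, and the list's median was 0.54. Of 8 oligodendrocyte lineage markers 4 fell and none rose, with sums of 2007 and 1970 CPM. The 8 mesenchyme and pericyte markers summed to 98.5 and 127 CPM, with 3 of 6 tested higher and 1 lower by the rule. The 4 listed endothelial markers summed to 7.08 and 13.3 CPM, with Flt1 at 0 in the control, and the 5 microglia markers to 2.94 and 5.06 CPM. In each of these lists 1 of 3 tested genes rose and none fell. Choroid plexus markers summed to 1.52 and 7.12 CPM, and the 1 tested, Ttr, rose. The single listed erythroid marker stayed under 1 CPM. The 5 astrocyte markers summed to 576 and 552 CPM, and of these S100b fell, from 68 to 7 counts, and none rose. Gfap was at 0.503 (0.440 to 0.574) and Aldh1l1 at 1.26 (1.19 to 1.34) of control. The log2 ratio was above 0 for 2 of the 5, with a median of -0.42. The part of these cell types in the differences of Rian, Meg3 and Dlk1 was not tested.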

How the data were processed

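RNA of 2 libraries, 1 control and 1 H3.3 knockdown, was analysed from 1 deposited table. Tools listed in the submitters' processing notes are HTSeq 0.6.0, Bowtie 1.0.1 and TopHat2 2.0.12, without settings. The deposited counts are whole reads per gene and were not normalized by the authors. The authors' normalized columns are CPM, their fold change is the ratio of those, and their log2 fold change and p-values stand in the same deposited table, with the test not named. Each of the 18510 listed genes has 2 or more counts in total, and 1 emptied line is not analysed here. Symbols matched 99.5% of the IDs.

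Counts were divided by the column totals. The log2 ratio of knockdown over control used 0.5 added count, and intervals are exact conditional (Clopper-Pearson) intervals at 95%. A single library a group allows no test. TMM factors came from edgeR 4.0.16 and size factors from DESeq2 1.42.0, as alternatives. Other work used Python 3.11.15 and scipy 1.17.1, and was checked on simulated counts. Those counts were drawn with counting error alone, so the check does not cover variation between cultures. The members and lists were chosen with earlier results of these data known. Named genes are the members, genes between their ends, the 3 nearest tested flanking genes a side, up to 4 list members past the size rule (otherwise the 2 most abundant) and the 3 genes most like Rian, of which 1 is not reported here. Amn, Mcm2, Chaf1a, Peg13, Malat1, Miat, Cct6a, Zfp57, Trim28, Ezh2, Dio2, Dlk2, some imprinted genes and Stmn2, Tubb3 and Syt1 were named after their values were seen. Gfap and Aldh1l1, and the ratios of Pax6 and Fabp7, were also chosen after their values were seen.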

Additional observations from a re-analysis of the deposited data

How the results depend on the processing

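Over the 5 alternatives tried for the member ratios (TMM scaling, DESeq2 size factors, 5 added counts, the authors' normalized columns and totals without the 6 members) the log2 ratio of Rian lay between 1.22 and 1.25, that of Meg3 between 0.77 and 0.80 and that of Dlk1 between 0.67 and 0.70. Mirg ranged from 0.27 to 0.32, Dio3 from 0.63 to 0.84 and Rtl1 from 0.07 to 0.09. Of 189 values under alternatives, 14 moved, none of them by a change of sign in a called gene. The other 175 stayed within set tolerances, not unchanged: a ratio within its counting interval and on the same side of the rule, a count within 1.5 times, and a median within 0.1 on the log2 scale. Within those, the other imprinted genes that rose went from 4 to 3 and the flanking median from 0.06 to 0.09. With a 1.5-fold size rule 3 members rose in place of 1, and 2 flanking genes rose and 1 fell. The single flanking gene that rose, Amn, dropped out (0 genes) with a minimum of 10 CPM and within 500 kb of the cluster. With the minimum of 10 CPM the thyroid hormone pathway had 0 higher, 0 lower and a median of -0.047, the Notch list 0 lower, the relatives of Rtl1 0 higher and the other imprinted genes a median of 0.19. Without a minimum 2 relatives of Rtl1 were higher. DESeq2 size factors gave 2 lower thyroid hormone genes, and 5 added counts left 0 lower Notch genes. Over all genes, 535 rose and 355 fell, against 169 and 174 with the minimum of 10 CPM and 1261 and 1147 with the 1.5-fold rule. No paired analysis was possible because each group holds 1 library, and no library could be left out for the same reason. Depth limits Mirg, Dio3 and Rtl1, with 27 or fewer counts in either library.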
